A study of Oryza sativa with 15 samples.

Results

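The genes described here were chosen by their measured levels in heat: transcripts that stood low in unheated rice shoots and after 30 min at 40 °C, and high after 60 min. A gene was kept when its mean after 60 min was at least 5 CPM (read counts scaled to library size, with TMM factors that correct for library composition) and at least 3 times both the wet control and the 30 min mean, with 0.1 CPM added to each mean. Of the 24073 genes in the table, 12465 reached 5 CPM after 60 min, 658 of these stood at least 3 times above the wet control, and 31 also stood at least 3 times above 30 min. Among the 5 loci that the rule sets aside by name, 2 had met its limits, which left 29 late heat genes. Both limits therefore rest on the wet control, 30 min and 60 min libraries, and every level and ratio of the 29 genes in those groups is a description with no test.

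Messenger RNA came from whole shoots of the rice cultivar Nipponbare (Oryza sativa), sown 7 to a pot after 3 days of germination and grown for 10 days with 12 h of light at 30 °C and 12 h of dark at 27 °C. The wet control stood in soil with 3 g of water per g, mild drought in 1.5 g per g and severe drought in 1.25 g per g. The heat groups were wet pots moved to 40 °C for the last 30 or 60 min, so they share genotype and soil water with the wet control, and every shoot was taken 6 h after dawn. With 3 samples in each of the 5 groups there were 15 libraries, with 49479059 to 77969214 counts per library. Whether replicates grew in different pots is not stated, and the p-values below rest on the spread among these samples alone, part of which may be technical. CPM are not divided by transcript length, so a higher CPM in one gene than in another is a larger share of reads, not a higher level per length. Shoots hold many cell types, and in bulk RNA a larger number of cells of one type and more transcript per cell cannot be told apart. The summed level of 8 shoot marker loci (light-harvesting, Rubisco and related photosynthesis genes) was 53300 to 65700 CPM after 60 min of heat and 66200 to 120000 CPM in the other libraries, and its part in the levels of the late heat genes was not tested. Of 4 root marker loci 3 stayed under 0.1 CPM in every library, as did 5 of 6 seed marker loci. Summed root markers were 14.8 to 20.3 CPM after 60 min of heat and 11.5 to 18.9 CPM in the wet control.

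Heat unfolds proteins, and plant cells answer within minutes through heat shock factors that switch on chaperone genes. The response to heat also involves other layers: protein folding in the endoplasmic reticulum (ER), calcium signals, and enzymes that make lipid-derived and phenolic compounds. Several of these also respond to drought through the hormone abscisic acid (ABA). The files pair no names with their identifiers, whose suffix .MSUv7.0 is left off here. Names were taken only where a known name of the locus is listed on the same chromosome of the RefSeq reference table (assembly ASM3414082v1), which held for 5 of the 29 genes. BIP4 encodes an ER chaperone of the HSP70 family, and CIPK6 a protein kinase of the family that acts with calcineurin B-like calcium sensors. PAL is phenylalanine ammonia-lyase, the entry enzyme of the phenylpropanoid route, OPR1 is a 12-oxophytodienoate reductase that acts on oxylipins, and PXG is a peroxygenase of the caleosin family, which binds calcium and sits on lipid bodies. All except BIP4 were matched after their values were seen. The reference lists the name OPR1 for 2 neighbouring genes, and PAL also stands in a row of close relatives, so reads may be shared there. The other 24 genes are given by identifier.

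**Figure D1:**
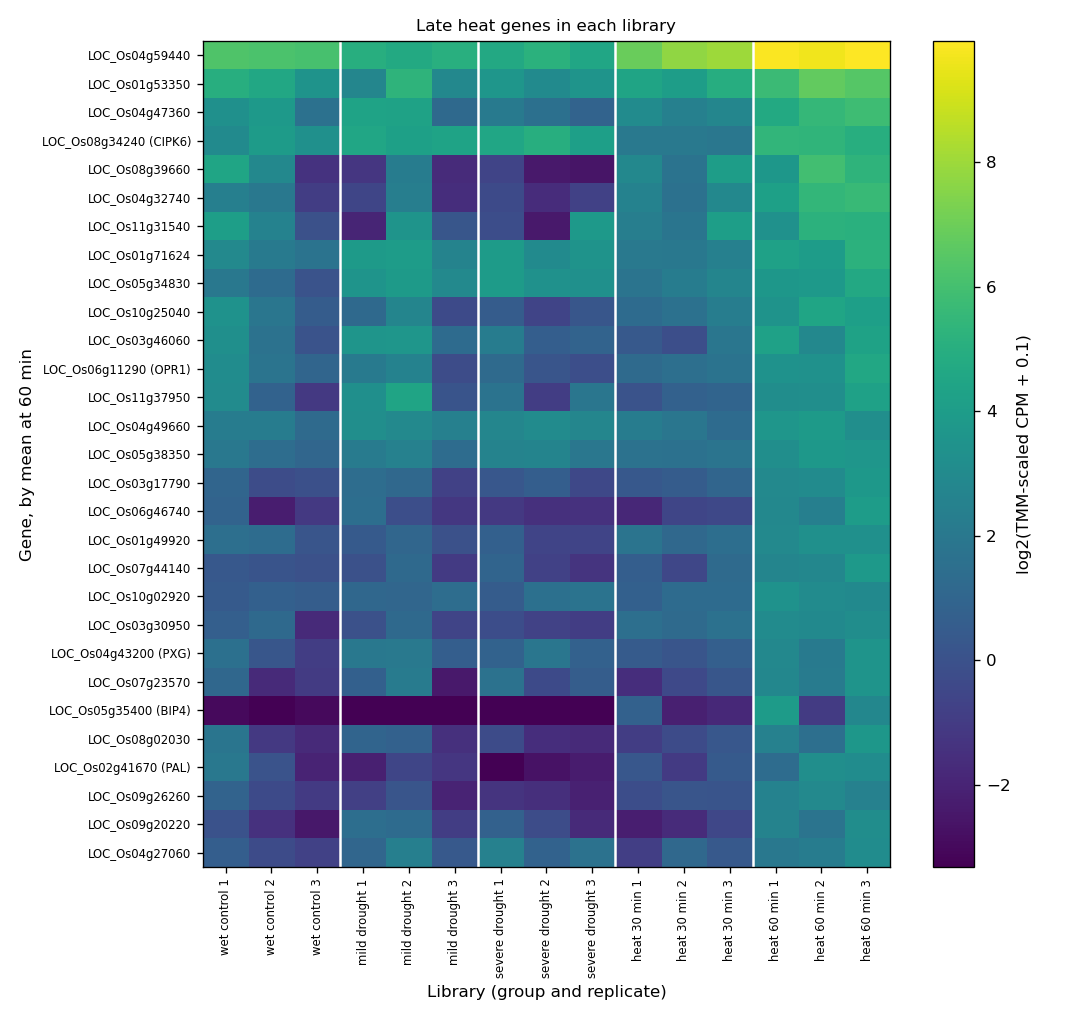
Level of each late heat gene (rows, ordered by mean after 60 min) in each of the 15 libraries (columns), as log2 of TMM-scaled CPM plus 0.1. The 60 min columns are the brightest in most rows, the top row LOC_Os04g59440 is the brightest of all, and the rows for BIP4 and PAL are darkest in drought.

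One gene took most of the reads of the group. LOC_Os04g59440 had 79.1, 72.5 and 66.6 CPM in the wet control libraries, 122, 216 and 255 CPM after 30 min and 939.7, 808 and 985 CPM after 60 min. The groups did not overlap at any of these steps, and the 60 min mean of 911 ± 92.0 CPM (SD, n = 3) was 12.5 times the wet mean and 4.61 times the 30 min mean. It alone carried 64.5% of the summed 60 min level of the 29 genes. It was also one of 2 late heat genes whose 30 min mean was already at least 2 times the wet control (2.71 times). The next locus in identifier order, SAPK5, which encodes an SnRK2-type protein kinase, had 42.4 ± 3.62 CPM in the wet control, 19.4 ± 3.24 CPM after 30 min and 29.1 ± 2.79 CPM after 60 min (SD, n = 3), so after 60 min the pair stood on opposite sides of the wet control.

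BIP4 was nearly silent without heat. Its level was 0.0248, 0 and 0.0269 CPM in the wet control, from 4 counts in all, and there were 0 counts in the 6 drought libraries, where 3 counts would be 0.0399 to 0.0608 CPM. It had 1.63, 0.123 and 0.185 CPM after 30 min and 15.3, 0.397 and 6.90 CPM after 60 min. Its 30 min mean was already 6.37 times the wet mean, with 0.1 CPM added to each. Replicate 1 was highest at both times, and 60 min replicate 2 lay below 30 min replicate 1, so the heat groups overlapped. Other genes of ER folding had another time course: BIP1, the main ER chaperone of the same family, had 139.6 ± 38.9 CPM in the wet control, 4052 ± 1210.8 CPM after 30 min and 1824 ± 526 CPM after 60 min (SD, n = 3).

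CIPK6 dipped before it rose. It had 7.96, 15.4 and 9.92 CPM in the wet control, 4.06, 3.97 and 3.75 CPM after 30 min and 41.7, 41.3 and 32.2 CPM after 60 min. All 30 min libraries lay below all wet libraries, at 0.359 times the wet mean, and all 60 min libraries lay above every other library of the series. The 60 min mean was 9.56 times the 30 min mean and 3.43 times the wet mean. The drought libraries stood between, at 18.64 to 23.1 CPM in mild and 17.86 to 31.6 CPM in severe drought.

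The 3 named enzymes were scattered between replicates. PAL (LOC_Os02g41670) had 3.88, 0.970 and 0.148 CPM in the wet control, 1.13, 0.370 and 1.23 CPM after 30 min and 2.47, 9.44 and 8.52 CPM after 60 min. Wet replicate 1 lay above 60 min replicate 1, so those groups overlapped. The neighbouring locus LOC_Os02g41650, which precedes it in the table, peaked at the earlier heat time, with means of 275, 462 and 316 CPM in the same order. LOC_Os02g41680, which follows it, had means of 20.8, 11.4 and 30.6 CPM, lowest after 30 min and highest after 60 min, as for the PAL means. OPR1 (LOC_Os06g11290) had 8.71, 3.35 and 1.91 CPM in the wet control, 2.29, 2.82 and 3.20 CPM after 30 min and 10.6, 10.5 and 24.6 CPM after 60 min. Its lowest 60 min library stood only slightly above the highest wet library. PXG (LOC_Os04g43200) had 2.92, 1.08 and 0.430 CPM in the wet control, 1.31, 1.05 and 1.53 CPM after 30 min and 7.12, 4.25 and 11.7 CPM after 60 min, with no overlap between 60 min and the other groups.

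**Figure D2:**
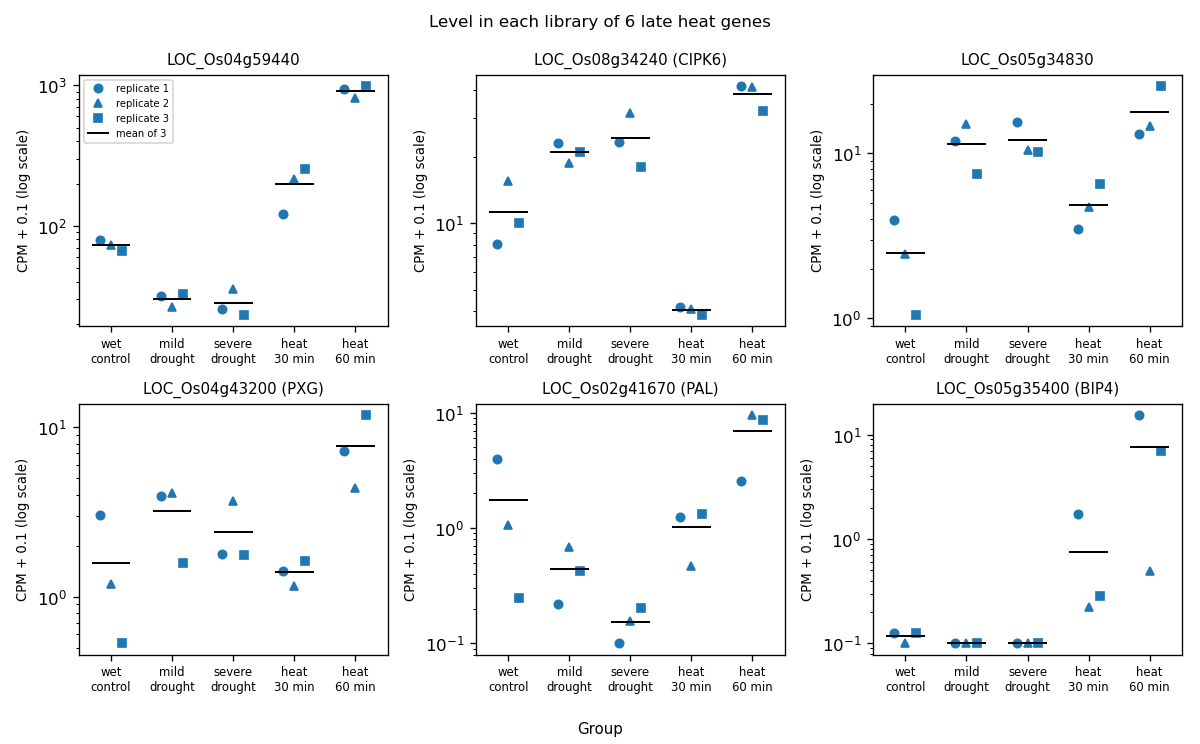
CPM plus 0.1 on a log scale in each library of 6 late heat genes, by group. Marker shape gives the replicate number and the bar is the mean of 3 libraries. CIPK6 falls at 30 min and is highest at 60 min, LOC_Os04g59440 is lowest in drought, and the 60 min values of BIP4 run from 0.397 to 15.3 CPM.

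Among the genes without a name, those with the largest ratios to both the wet control and 30 min of heat were rare transcripts before 60 min. LOC_Os06g46740 had 0.111 to 1.79 CPM in the wet control, 0.179 to 0.626 CPM after 30 min and 7.11, 5.11 and 16.0 CPM after 60 min, 16.95 times the 30 min mean and 11.1 times the wet mean. LOC_Os09g20220 had 0.0807 to 0.919 CPM in the wet control, 0.119 to 0.603 CPM after 30 min and 6.04, 3.30 and 8.84 CPM after 60 min, 15.1 and 11.7 times those means. LOC_Os07g23570 had 0.194 to 2.09, 0.239 to 1.09 and 4.52 to 11.4 CPM in the same order. For all 3 the 60 min libraries lay above every library of the other groups.

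Others were readily read before heat. LOC_Os01g53350, second of the 29 in CPM, had 31.9, 24.6 and 10.98 CPM in the wet control, 21.3, 16.6 and 31.2 CPM after 30 min and 52.7, 107 and 87.3 CPM after 60 min. Its 30 min mean was 1.02 times the wet mean, so that no rise was visible at the earlier time. LOC_Os04g47360 had 9.99, 14.02 and 3.00 CPM in the wet control, 5.33 to 8.22 CPM after 30 min and 26.1, 46.2 and 56.5 CPM after 60 min. LOC_Os04g32740 went from 0.430 to 5.27 CPM in the wet control and 2.98 to 7.25 CPM after 30 min to 18.5, 44.7 and 48.3 CPM. Each of these 3 genes had 60 min replicate 1 as its lowest 60 min library.

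LOC_Os08g39660 and LOC_Os11g31540 met the limits by their means although libraries overlapped. LOC_Os08g39660 had 22.1, 7.34 and 0.282 CPM in the wet control, 7.33, 3.25 and 16.4 CPM after 30 min and 13.1, 60.0 and 39.4 CPM after 60 min. LOC_Os11g31540 had 17.1, 5.83 and 0.874 CPM in the wet control, 5.02, 3.46 and 16.92 CPM after 30 min and 10.3, 36.3 and 33.6 CPM after 60 min. For both, wet replicate 1 and 30 min replicate 3 stood above 60 min replicate 1. Wet libraries of LOC_Os03g46060 (0.954 to 9.49 CPM) and LOC_Os08g02030 (0.202 to 3.52 CPM) also overlapped their 60 min libraries (7.11 to 20.0 and 2.79 to 12.8 CPM).

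A subset had close 60 min replicates. LOC_Os03g30950 had 8.33, 7.77 and 9.01 CPM after 60 min, against 2.26 to 3.04 CPM after 30 min and 0.202 to 2.20 CPM in the wet control. LOC_Os10g02920 had 10.9, 8.30 and 7.75 CPM after 60 min, 1.57 to 2.39 CPM after 30 min and 1.27 to 1.59 CPM in the wet control. LOC_Os09g26260 had 5.77, 7.48 and 5.62 CPM, 0.776 to 1.03 CPM and 0.376 to 1.76 CPM in that order. LOC_Os05g38350 had 9.31 to 13.2 CPM after 60 min, 3.04 to 3.31 CPM after 30 min and 1.98 to 3.91 CPM in the wet control. LOC_Os01g49920 had 7.37 to 10.1, 2.098 to 3.30 and 1.04 to 2.81 CPM in the same order. None of these 5 had an earlier library that reached its 60 min range.

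The last 8 genes lay between these extremes, and are given with their range after 60 min, after 30 min and in the wet control. For LOC_Os01g71624 these were 16.3 to 37.2, 3.91 to 5.35 and 3.17 to 7.39 CPM, and for LOC_Os05g34830 13.0 to 25.5, 3.38 to 6.40 and 0.954 to 3.83 CPM. For LOC_Os10g25040 they were 10.97 to 22.0, 2.39 to 4.75 and 1.33 to 10.7 CPM. LOC_Os11g37950 had 8.86 to 19.2, 0.936 to 1.85 and 0.363 to 8.24 CPM, so that its highest wet library almost reached its 60 min range, as in LOC_Os10g25040. LOC_Os04g49660 had 9.25 to 14.7, 2.36 to 4.58 and 2.33 to 4.70 CPM. LOC_Os03g17790 had 7.46 to 13.3, 1.15 to 1.90 and 0.734 to 1.88 CPM, and LOC_Os07g44140 had 6.42 to 14.1, 0.617 to 2.27 and 0.887 to 1.18 CPM. LOC_Os04g27060, with the lowest 60 min mean of the 29, had 3.86 to 8.81, 0.458 to 2.16 and 0.484 to 1.45 CPM. In all 8 the 60 min libraries stayed above both other groups.

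Most of the 29 genes took few reads: 14 had a 60 min mean under 10 CPM, 13 had 10 to 50 CPM and 2 had more, with a median of 11.7 CPM. Their ratios ran from 3.09 to 65.1 against the wet control (median 4.90, the highest being BIP4, whose ratio is set by the 0.1 CPM added) and from 3.04 to 16.95 against 30 min (median 5.57). At 30 min the mean was below the wet control for 16 genes and at or above it for 13, with a median ratio of 0.917. CIPK6, LOC_Os03g46060 and LOC_Os11g37950 had a 30 min mean at most 0.5 times the wet mean. Every 60 min library was above every wet library for 24 genes and above every 30 min library for 26. Over all 20462 tested genes these shares were 24.7% and 23.4%, from which nothing is read, since the rule used these contrasts. Every 60 min library was above every mild drought library for 24 of the 29 (25.4% of all tested genes) and above every severe drought library for 26 (27.4%). Nothing is read from these counts, since the rule chose genes for a high 60 min mean, which favours them. For 20 of the 29 every 60 min library was above every other library of the series, beside 4.2% of all tested genes, and nothing is read from this either, since the wet and 30 min libraries are among them.

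**Figure D3:**
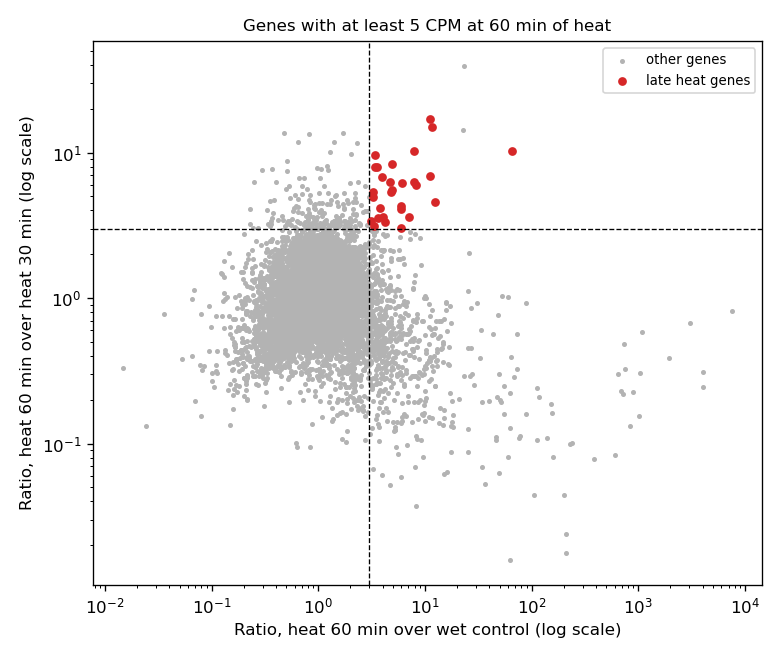
Each gene with at least 5 CPM after 60 min of heat, by its ratio of 60 min over wet control (x) and 60 min over 30 min (y), both on log scales, with dashed lines at 3. The 29 late heat genes fill the upper right corner, apart from 2 loci the rule sets aside, and BIP4 is the red point at 65.1 on x. Most genes that stood at least 3 times above the wet control lie low on y.

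Most genes raised after 60 min of heat already stood high after 30 min. Of the 658 genes at least 3 times above the wet control after 60 min, 569 genes were also at least 3 times above it after 30 min. BIP4 was among these 569, since the rule limits the ratio of 60 to 30 min and not the time at which a rise starts. Values near the limits changed smoothly across them. LOC_Os04g49660 (3.09), OPR1 (3.22) and LOC_Os10g25040 (3.24) lay just inside the limit against the wet control, and LOC_Os01g19260 (2.96), LOC_Os01g06640 (2.94) and LOC_Os08g27720 (2.86) just outside. LOC_Os03g30950 (3.04), LOC_Os11g31540 (3.13) and LOC_Os01g49920 (3.32) lay just inside the limit against 30 min, and LOC_Os01g17050 (2.92), LOC_Os09g28180 (2.91) and LOC_Os05g43770 (2.89) just outside. On the level itself, LOC_Os04g27060 (5.80 CPM), LOC_Os09g20220 (6.06 CPM) and LOC_Os09g26260 (6.29 CPM) were the lowest inside, and LOC_Os08g32060 (4.64 CPM), LOC_Os06g11720 (4.48 CPM) and LOC_Os04g37700 (3.86 CPM) the highest outside.

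Libraries of 1 group lay far apart in the late heat genes, and farther than in the median tested gene. The tested genes were not matched to the late heat genes for level. The wet, 30 min and 60 min libraries also took part in the choice, so the wider spread is a description only. In the wet control the highest and lowest library of a gene were a median of 2.13 log2 apart for the 29 genes and 0.635 over all tested genes. In mild drought the medians were 2.18 and 0.611, in severe drought 1.14 and 0.542, after 30 min 0.925 and 0.481, and after 60 min 1.12 and 0.329. Of the wet libraries, replicate 1 was highest for 23 of the 29 genes and replicate 3 lowest for 23, with median deviations from the wet mean of 0.86 and -0.90 log2. In mild drought replicate 2 was highest for 19 and replicate 3 lowest for 22. In severe drought replicate 1 was highest for 19 and replicate 3 lowest for 16. After heat, replicate 3 was highest for 21 genes at 30 min and for 17 genes at 60 min. Over all tested genes the median deviation of a library lay between -0.0368 and 0.0248 log2. The TMM scaling itself keeps this value small, so it is no background for the order of libraries. How often a replicate was highest or lowest was not counted over all tested genes. Among 14 jasmonate genes, a hormone route of wounding and defence, wet replicate 1 was highest for 7, with a median deviation of 0.16. Wet replicate 2 was highest for 2 and replicate 3 for 5 of them, with median deviations of -0.15 and -0.36. A tie between these genes and the late heat genes was not tested.

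The choice of genes therefore moved with single libraries. Without wet replicate 1, 66 genes met the limits, all 29 among them. Without wet replicate 3, 21 genes met them, with 20 of the 29. Without 60 min replicate 1 there were 53 genes, with 27 of the 29, and without 60 min replicate 3 there were 21, with 20 of the 29. In total, 14 genes met the limits whichever of the 9 libraries was left out. These were LOC_Os04g59440, CIPK6, PXG, LOC_Os04g47360, LOC_Os04g32740, LOC_Os01g71624, LOC_Os05g38350, LOC_Os03g17790, LOC_Os06g46740, LOC_Os01g49920, LOC_Os07g44140, LOC_Os10g02920, LOC_Os07g23570 and LOC_Os09g26260. BIP4, PAL and OPR1 were not among them.

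**Figure D4:**
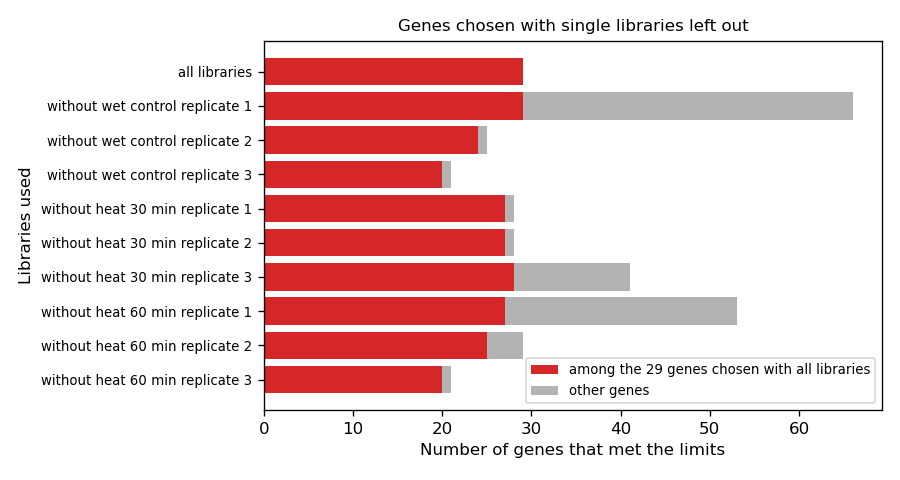
Number of genes that met the limits with all libraries and with each of the 9 libraries behind the rule left out. Red marks genes among the 29 and grey marks others. Leaving out wet control replicate 1 gives the longest bar, 66 genes, and the 29 are all in it.

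Drought libraries took no part in the choice, so the drought groups ask whether the late heat genes also respond to dry soil. The fold change of severe against mild drought compares libraries that the rule did not use. Its SE and p-value are not independent of the rule, since the spread was estimated over all 15 libraries. Both comparisons with the wet control use the wet libraries that the rule required to be low, which favours rises and works against falls. Tests are edgeR quasi-likelihood tests over all 20462 genes with Benjamini-Hochberg adjustment, and ± after a log2 fold change is its SE. In mild drought 1 of the 29 genes rose and 1 fell, where 1.44% of all tested genes were called (0.909% rose and 0.528% fell). In severe drought 2 rose and 1 fell, where 2.69% were called (1.64% rose and 1.05% fell). The median log2 fold change of the 29 was 0.58 in mild and -0.81 in severe drought, beside 0.00 and -0.02 over all tested genes.

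LOC_Os04g59440, first of the 29 in CPM and 13th in its ratio to the higher of the wet and 30 min means, fell in both droughts. It had 31.7, 26.5 and 32.4 CPM in mild drought and 25.5, 35.2 and 23.3 CPM in severe drought, all below the lowest wet library at 66.6 CPM. The log2 fold change was -1.27 ± 0.24 in mild drought (adjusted p = 0.026, edgeR) and -1.38 ± 0.24 in severe drought (adjusted p = 0.010, edgeR). The mild call was lost without wet replicate 1 or 3 and without mild replicate 1 or 2 (adjusted p = 0.064 to 0.11, edgeR), and the severe call without severe replicate 3 (adjusted p = 0.060, edgeR). The gene thus stood lower than the wet control in dry soil and higher in heat.

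LOC_Os05g34830 rose in both droughts. It had 3.83, 2.37 and 0.954 CPM in the wet control, 11.7, 14.95 and 7.44 CPM in mild drought and 15.5, 10.4 and 10.1 CPM in severe drought, with no overlap with the wet libraries. The log2 fold change was 2.25 ± 0.46 in mild (adjusted p = 0.034, edgeR) and 2.33 ± 0.46 in severe drought (adjusted p = 0.018, edgeR). Its 60 min libraries (13.0 to 25.5 CPM) overlapped both drought groups. The mild call was lost without wet replicate 3 or mild replicate 1 or 2 (adjusted p = 0.079 to 0.12, edgeR) and when only total counts set the scale (adjusted p = 0.055, edgeR). The severe call was lost without severe replicate 1 (adjusted p = 0.061, edgeR).

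CIPK6 rose in severe drought, by 1.12 ± 0.24 on the log2 scale (adjusted p = 0.028, edgeR), to 24.2 ± 6.90 CPM from 11.1 ± 3.88 CPM (SD, n = 3). In mild drought it had 20.9 ± 2.23 CPM (SD, n = 3), with all 3 libraries above the wet libraries, and an adjusted p = 0.076 (edgeR). The severe call was lost without wet replicate 1 or 3 and without severe replicate 1 or 2 (adjusted p = 0.062 to 0.094, edgeR). Its level was thus lowest at 30 min of heat, intermediate in the wet control and highest at 60 min of heat, with the drought groups, whose libraries overlapped each other, below 60 min.

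At the other end stood PAL and LOC_Os08g39660. PAL had 0.122, 0.586 and 0.322 CPM in mild drought and 0, 0.0577 and 0.101 CPM in severe drought, the latter from 10 counts in all. Its severe log2 fold change of -4.90 ± 1.21 missed the threshold (adjusted p = 0.053, edgeR), and over 12 alternatives its adjusted p ran from 0.00011 to 0.25. It passed without wet replicate 3 (adjusted p = 0.020, edgeR) and by DESeq2 (adjusted p = 0.00011). Without wet replicate 1 the log2 fold change was -3.32 (adjusted p = 0.16, edgeR), and without single severe libraries the adjusted p was 0.14 to 0.15 (edgeR). LOC_Os08g39660 had 0.324, 4.61 and 0.205 CPM in mild drought and 0.551, 0.0866 and 0.0675 CPM in severe drought, with -5.43 ± 1.61 (adjusted p = 0.094, edgeR, and 0.0025 by DESeq2). Both had their highest wet level in replicate 1, the library in which most late heat genes were highest.

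**Figure D5:**
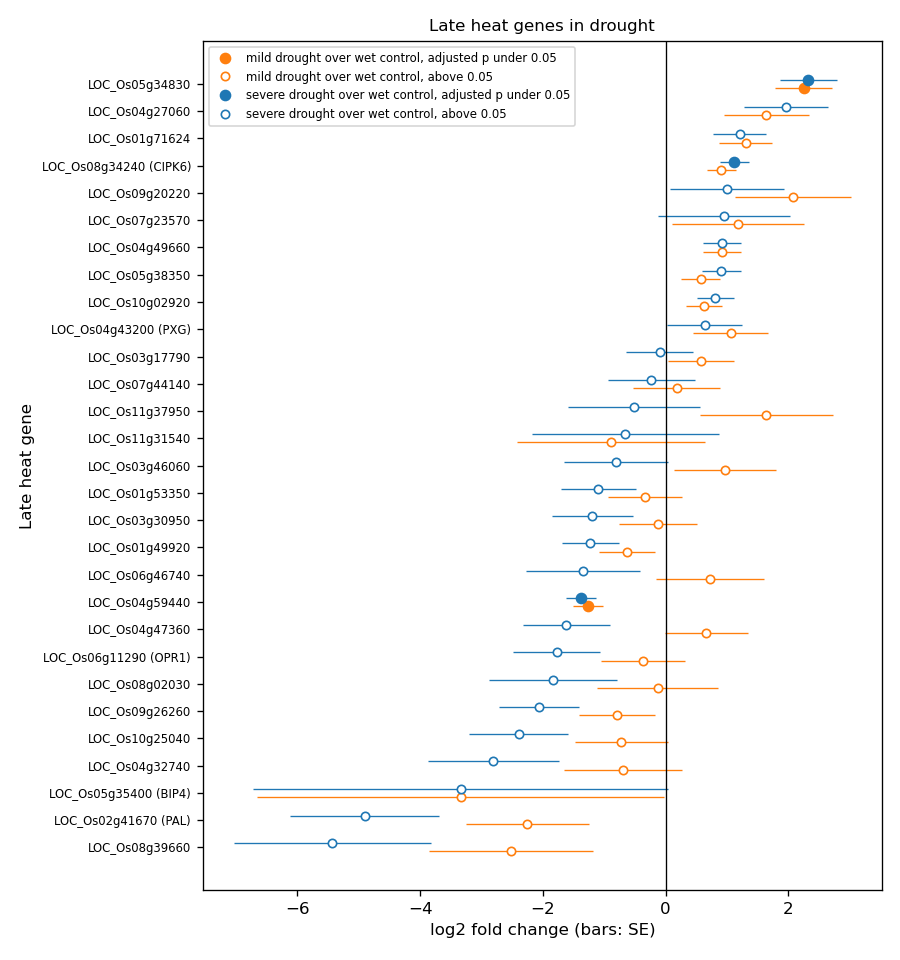
log2 fold change (x, bars give the SE) of each late heat gene in mild (orange) and severe drought (blue) over the wet control, ordered by the severe value. Filled points have an adjusted p under 0.05. The values run from PAL and LOC_Os08g39660 at the bottom to LOC_Os05g34830 at the top, and both sets share the wet control libraries. The values of BIP4 are set against drought libraries with 0 counts and depend on the prior count.

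OPR1 and PXG, among the others, went different ways by their means. OPR1 had 4.21, 5.83 and 0.760 CPM in mild drought and 2.28, 1.01 and 0.810 CPM in severe drought, where its wet libraries had 1.91 to 8.71 CPM. PXG had 3.81, 3.99 and 1.48 CPM in mild drought and 1.69, 3.58 and 1.65 CPM in severe drought, where its wet libraries had 0.430 to 2.92 CPM. Both overlapped the wet control in each drought. LOC_Os01g71624 had 5.92 to 15.9 CPM in mild drought and 7.93 to 15.2 CPM in severe drought, where its wet libraries had 3.17 to 7.39 CPM, so that its severe libraries alone lay clear of the wet ones.

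The remaining genes were not past the threshold in either drought. By their means, 10 of the 29 were higher than the wet control in both droughts, 13 were lower in both, and 6 were higher in mild and lower in severe drought. BIP4 is among the 13, but its 4 counts in the wet control and 0 in drought are too few to show a fall. Such counts were not made over all tested genes, so nothing is read from them. Between the droughts themselves 0 genes were past the threshold, 0% of all tested genes likewise (edgeR). DESeq2 also called 0 of the 29 there. The mean was lower in severe than in mild drought for 22 of the 29, a count not made over all tested genes. The median log2 fold change of severe over mild drought was -0.68 for the 29 and -0.02 over all tested genes. LOC_Os04g47360 had the smallest p, with 20.9, 19.8 and 2.21 CPM in mild and 4.24, 2.83 and 1.75 CPM in severe drought (-2.28 ± 0.72, adjusted p = 1, edgeR). Mild replicate 3 lay among the severe libraries there, as it was the lowest mild library for 22 of the 29.

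For each late heat gene the locus before and after it in identifier order was read, 58 in all, of which 29 reached 5 CPM after 60 min. Of the 58, 0 were at least 3 times above the wet control, a limit that 5.28% of all genes with 5 CPM after 60 min met, so that few were to be found among 29 such neighbours whatever their place. LOC_Os01g53370, 1 of the pair beside LOC_Os01g53350, had a mean of 3.23 CPM in the wet control, 0.0557 CPM after 30 min and 2.73 CPM after 60 min, a dip with return and not a rise. Late heat genes came from 11 of the 12 chromosomes. Chromosome 4 held 6 of them (20.7%, beside 8.67% of tested genes) and chromosome 12 held 0.

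Lists of known stress genes were read for the same time course, with the late heat genes and the 5 set-aside loci left out. In 14 lists, 133 genes whose name was found in the reference were tested, and 9 rose and 39 fell from 30 to 60 min, where 10.4% of all tested genes rose and 13.9% fell (edgeR). With total counts only, 49 rose and 19 fell, where 49.2% of all tested genes rose and 3.32% fell. The count of 9 became 4 without 30 min replicate 1, 5 without 30 min replicate 2 and 5 without 60 min replicate 3. Over all 184 listed loci tested, named in the reference or not, 14 rose and 59 fell. Of the 9 genes, 0 were past the threshold above the wet control after 60 min, and 3 were below it. HOX6, a homeobox factor, had 14.7 ± 2.07 CPM in the wet control, 3.01 ± 0.265 CPM after 30 min and 7.14 ± 1.97 CPM after 60 min (SD, n = 3). PRR1, a clock gene, had 9.25 ± 1.13, 3.74 ± 0.769 and 9.30 ± 0.652 CPM in the same order (SD, n = 3), a return to the wet level. The other 7 were HSFC1A, HSFC2A, ABA8OX1, SAPK5, NAC6, TIP4;2 and AOC. The sample titles give no pairing of the heat libraries beyond a shared number. With a replicate block by that number AOC, an enzyme of jasmonate synthesis, missed the threshold (adjusted p = 0.060, edgeR).

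Most chaperone genes stood higher at 30 than at 60 min. Of 25 listed heat shock protein loci tested, 10 had a name found in the reference. These 10 all rose against the wet control at 30 min, where 19.3% of all tested genes rose and 19.6% fell (edgeR), and at 60 min, where 16.2% rose and 15.8% fell. Of all 25 loci, 23 rose and 1 fell at each time. The one that fell, LOC_Os12g38180, changed by -1.48 log2 at 30 min (adjusted p = 1.8e-06, edgeR) and by 0.66 from 30 to 60 min (adjusted p = 0.0035, edgeR). From 30 to 60 min 1 of the 25 rose and 16 fell (2 and 10 with total counts only), and of the 10 with a found name 0 rose and 6 fell (0 and 4 with total counts only).

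Of 9 other ER folding genes, the list to which BIP4 belongs, 8 were higher than the wet control and 1 lower after 60 min. From 30 to 60 min 0 of the 9 rose and 6 fell, against 1 risen and 2 fallen with total counts only. Of 20 heat shock factor genes 2 rose and 12 fell between the heat times (5 and 11 with total counts only). Of 25 ABA genes 2 rose and 2 fell, against 3 and 1 with the replicate block and 17 and 1 with total counts only. Of 12 drought and cold transcription factor genes 2 rose and 1 fell, against 2 and 0 with the replicate block and 6 and 0 with total counts only. Of 15 aquaporin genes 1 rose and 6 fell, against 1 and 4 with the replicate block and 5 and 0 with total counts only. Of 11 clock and light genes 1 rose and 3 fell, against 1 and 2 with the replicate block and 5 and 0 with total counts only. Of 6 LEA and dehydrin genes 0 rose and 0 fell (2 and 0 with total counts only). Of 14 jasmonate genes 1 rose and 0 fell, against 0 and 0 with the replicate block and 3 and 0 with total counts only. Scaling by total counts raises every gene between the heat times, by a median of 0.76 log2, because the TMM factors of the 30 min libraries (0.624 to 0.709) lie far below those of all others (0.998 to 1.32). With total counts only, 55 genes met the limits for late heat genes, 24 of the 29 among them.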

How the data were processed

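The libraries were stranded mRNA libraries (NEBNext). The submitters' processing notes name Trimmomatic (read trimming), HISAT2 (alignment) and featureCounts (counting), with no versions. Neither the build nor how strand was handled is given in the sources used here, beyond the identifiers' suffix, so reads of overlapping, antisense or closely related genes may be mixed. The deposited values are whole read counts per gene, not normalized. Groups and replicate numbers came from sample titles. TMM-scaled CPM and all tests were computed in R 4.3.3 with edgeR 4.0.16. The model had 1 mean per group over 15 libraries, robust dispersion, filterByExpr (minimum count 10, minimum total 15; 20462 genes, all 29 late heat genes among them) and a threshold of 0.05. Deposited counts of replicates differed by a chi-square of 31.1 to 495 per gene, so no library was counted as a repeat.

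The genes, lists and tests were chosen with earlier results of these data known. Named were the 12 late heat genes highest after 60 min, the 12 with the largest ratio, those with a name, those with the smallest p in drought and those nearest each limit. Since these rules cover most of the 29, all were described. List genes that rose were named after their values were seen. Of 208 listed loci, 149 had their name on the same chromosome of the reference, and 139 of 141 adjacent pairs kept their order. That check cannot separate neighbouring relatives. Methods were tested on simulated counts. DESeq2 1.42.0, other scalings, no filter, the compared groups alone, a replicate block, other limits and each library left out were alternatives, and TMM factors from filtered genes were added after seeing the data. Same-numbered 30 and 60 min samples deviated together (correlations of 0.48, 0.3 and 0.28). Samples 60 min replicate 2 and 30 min replicate 3 did so too (0.35), so these values do not establish a pairing. A fit with a replicate block in the heat libraries, counts over all listed loci and the alternatives for list counts were also added after seeing the data.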

Additional observations from a re-analysis of the deposited data

How the results depend on the processing

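The number of late heat genes was 29, and 28 with RLE size factors. It was 55 with total counts only, 55 with group medians, 132 and 8 with a fold limit of 2 and 5, and 50 and 15 with a CPM limit of 1 and 10. A pseudocount of 1 gave 20. Leaving out single libraries gave 21 to 66. Genes called in mild drought numbered 2 of 29, and 1 with total counts only, 5 with DESeq2, 0 with the compared groups alone, 0 with the fold limit of 5 and 0 to 3 with a library left out. With total counts only, 1.08% of all tested genes were called in mild drought. In severe drought 3 were called, 9 with DESeq2, 0 with the compared groups alone, 8 of the genes at a fold limit of 2, 0 at a limit of 5 and 2 to 3 with a library left out. Between the droughts none of the late heat genes was called in any alternative run, while over all genes DESeq2 called 45 and edgeR 4 without mild drought replicate 2. DESeq2 called 10.8% of all its tested genes in mild and 8.94% in severe drought. None of 8 log2 fold changes followed for single genes (LOC_Os04g59440 and LOC_Os05g34830 in both droughts, CIPK6, PAL and LOC_Os08g39660 in severe drought, LOC_Os04g47360 between droughts) changed sign in 12 alternatives each. With the compared groups alone the calls of LOC_Os04g59440, LOC_Os05g34830 and CIPK6 were all lost, with adjusted p of 0.081 to 0.32 (edgeR). Hardly any gene passed in that fit: 0% of all tested genes for mild and 0.162% for severe drought. With all groups and libraries, mild calls made up 1.44% of all tested genes. Without wet replicate 1 or 3 this share was 0.681% or 0.286%, and without mild replicate 1 or 2 it was 0.144% or 0.357%. It was 4.5% without wet replicate 2 and 6.28% without mild replicate 3. Mild calls lost where few genes passed are thus not particular to the late heat genes. Severe calls made up 2.69% of all tested genes with all libraries, and 1.4%, 2.98% or 2.09% without wet replicate 1, 2 or 3. Without severe replicate 1, 2 or 3 the share was 1.5%, 1.71% or 1.03%. The severe call of CIPK6 was lost without wet replicate 3 although 2.09% passed, so the same is not said of severe calls with a library left out.

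In no drought comparison did every same-numbered pair of samples deviate together (correlations from -0.51 to 0.58). Samples of replicate 3 did so for mild and wet (0.58), severe and wet (0.34) and severe and mild (0.52). Samples of unlike number reached 0.62, so these values neither establish nor exclude a pairing of the drought and wet samples. With a replicate block 1 late heat gene was called in mild drought, beside 0.992% of all tested genes, and LOC_Os05g34830 was lost (adjusted p = 0.060, edgeR). In severe drought 4 late heat genes were called with that block, beside 2.03% of all tested genes. Listed genes that rose from 30 to 60 min numbered 9, also with a replicate block in the heat libraries, 49 with total counts only and 4 to 8 with a heat library left out. Depth limits the lowest values: 3 counts are 0.035 to 0.0695 CPM, and intervals from counts would cover counting error only.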
